A study of Mus musculus with 11 samples.

Results

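Matrix proteases and their inhibitors were followed as the 85 genes, of 20640 in the deposited table, whose symbols name a matrix metalloproteinase (Mmp, 23 genes), a tissue inhibitor of metalloproteinases (Timp, 4), a disintegrin and metalloproteinase (Adam, 34), an Adam with thrombospondin motifs (Adamts, 19) or an Adamts-like protein (Adamtsl, 5). They were taken by symbol alone, with no regard to their level. The libraries are bulk RNA-seq of YFP+ cells sorted from limb muscle of Pax7-CreERT2;Rosa-YFP mice, in which tamoxifen-induced Cre at the muscle stem cell gene Pax7 switches on a YFP reporter. All groups share that genotype and oral tamoxifen for 5 days (240 mg/kg) at 12 to 14 weeks of age, and the sort removed cells with Sca-1, CD31 or CD45. Muscle had been dissociated with collagenase and dispase before the sort. The geriatric groups, from mice of more than 28 months, are VCAM1-negative (3 libraries), VCAM1-low (2 libraries) and VCAM1-high (3 libraries), by surface level of the adhesion molecule VCAM1. The middle-aged group (3 libraries) holds YFP+ cells of mice of 10 to 14 months by the sample labels, or 12 to 14 months by the extraction protocol, and its titles name no VCAM1 gate. Age, gate and the time since tamoxifen therefore cannot be told apart in any comparison with it. Sample titles name the gates low and negative where the design text has other names, and the titles are followed here. No label states that replicates are separate animals, so the tests weigh differences only against the variation of these libraries, which may be technical.

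As background, MMPs are zinc endopeptidases that are secreted or held at the cell surface as inactive precursors and that cut collagens, other matrix proteins and growth factor carriers. TIMPs bind their active sites, and Timp3 stands apart by binding to the matrix and by also inhibiting several ADAM and ADAMTS enzymes. ADAMs shed the outer parts of membrane proteins such as Notch receptors, cytokine receptors and growth factor precursors. ADAMTS enzymes cut proteoglycans such as versican or trim procollagens, while ADAMTS-like proteins keep the ancillary domains and lack the catalytic one. Muscle stem cells lie between the fibre and its basement membrane, so these enzymes act on the matrix that surrounds them.

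Levels are in RPKM, reads scaled by gene length in kilobases and by library size, so levels of different genes can be set side by side per length. Fold changes were estimated with limma on log2(RPKM + 1), a scale that understates changes of genes near 1 RPKM, and are given with the standard error of the fit. Rise and fall are used of a gene whose Benjamini-Hochberg adjusted p, over all 11568 genes tested, lies under 0.05. An error after a level is the SD between libraries of that group. The 11 libraries hold an estimated 19.9 to 29.85 Mreads each (Mreads, mega reads), and a single read on a gene of 1 kb gives 0.0503 RPKM in the shallowest library.

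Transcripts of the sorted cell type and of others were both present. Pax7, the defining transcription factor of muscle stem cells, was detected in all libraries, and the 8 stem cell markers summed to 1338 to 1975 RPKM in VCAM1-negative, 1305 and 2029 in VCAM1-low, 1445 to 3002 in VCAM1-high and 2580 to 2994 in middle-aged libraries. Endothelial markers (10 genes) summed to 35.1 to 101 RPKM in VCAM1-negative, 39.5 and 64.4 in VCAM1-low, 15.4 to 78.7 in VCAM1-high and 16.7 to 218 in middle-aged libraries, with the highest sum in middle-aged replicate 3. Macrophage markers (9 genes) summed to 75.0 to 208 RPKM in VCAM1-negative, 36.2 and 51.3 in VCAM1-low, 2.63 to 842 in VCAM1-high and 5.38 to 136 in middle-aged libraries. The highest macrophage sum is VCAM1-high replicate 3. Neutrophil markers (5 genes) summed to 2.32 to 15.8 RPKM in VCAM1-negative, 5.79 and 8.73 in VCAM1-low, 2.02 to 47.6 in VCAM1-high and at most 0.737 in middle-aged libraries. Fibro-adipogenic progenitor markers (9 genes) summed to 584 to 1050.0 RPKM in VCAM1-negative, 595 and 717 in VCAM1-low, 612 to 1068 in VCAM1-high and 660 to 1549 in middle-aged libraries. Muscle fibre markers (8 genes) reached 642 to 6645 RPKM in VCAM1-negative libraries, against 48.4 and 147 in VCAM1-low, 53.3 to 126 in VCAM1-high and 140.3 to 299.8 in middle-aged libraries. Carry-over from other cells and a change within the sorted cells cannot be told apart in bulk libraries, and neither can fewer cells of a type and less RNA per cell.

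Of the 85 genes, 36 reached 1 RPKM in at least 2 libraries and were tested, and 49 were not. Among the 49, 10 were listed at 0 in all 11 libraries (among them the matrilysin Mmp7 and Adamts13, the protease of von Willebrand factor), 37 had values above 0 that stayed under 1 RPKM, and 2 passed 1 RPKM in a single library. Those 2 were Adam30, at 1.43 RPKM in VCAM1-low replicate 1, and Adam12, a shedding enzyme of regenerating muscle, at 2.33 RPKM in middle-aged replicate 1 and at most 0.518 RPKM elsewhere. All 4 TIMPs, both gelatinases and all 7 proteoglycan-cutting ADAMTS genes were tested. Of the 14 other secreted MMPs 5 were tested, of the 7 membrane-type MMPs 4, and of the 9 proteolytic ADAMs of the body's tissues 5. Of the 22 ADAMs left over, mostly genes known from testis, 1 was tested.

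A few genes carried most of the signal. The 85 genes held 0.2005% to 0.3779% of all RPKM in a library, and the leading 5 of each library held 76.8% to 83.7% of that share. In 10 of the 11 libraries the leading 5 were the inhibitors Timp3 and Timp2, the versican-cutting enzymes Adamts1 and Adamts4, and the gelatinase Mmp2. In VCAM1-high replicate 2, Timp1 took the place of Mmp2. Timp3 and Timp2 were the leading pair in every geriatric library, while Timp3 came after Timp2, Adamts1 and Mmp2 in all 3 middle-aged libraries.

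**Figure D1:**
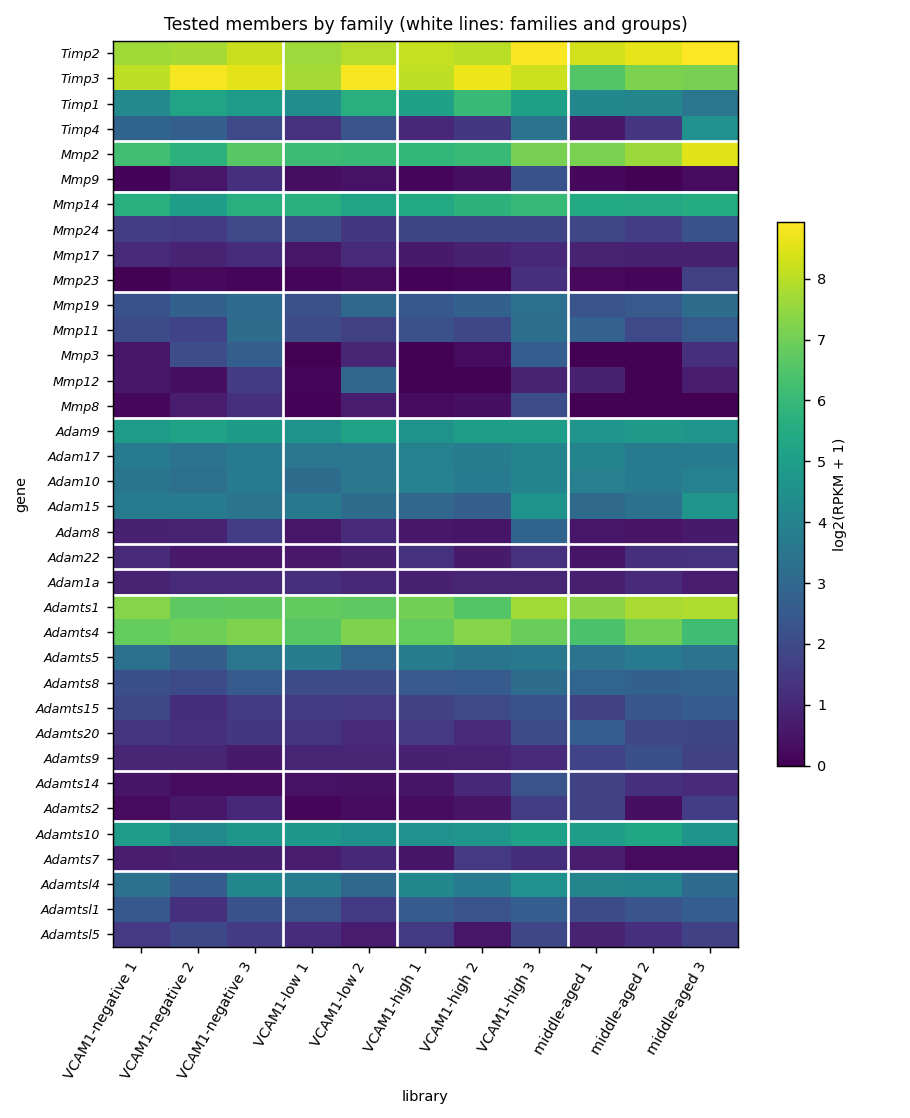
Level of the 36 tested genes as log2(RPKM + 1), one row per gene and one column per library, with families and groups set apart by white lines. Timp2, Timp3, Adamts1, Adamts4 and Mmp2 are bright throughout, while most collagenases and stromelysins stay dark. Adam9, Adam10, Adam15 and Adam17 lie between, and the other tested ADAMs are mostly dark. Single libraries stand out in some rows, such as Adam8 in VCAM1-high replicate 3, Mmp12 in VCAM1-low replicate 2 and Timp4 in middle-aged replicate 3.

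Timp3 and Adamts9 passed the test between geriatric and middle-aged libraries in comparisons that follow, and Timp1 did so only in a provisional fit described there. The promoters of these 3 genes are shown as the stretches that a reader would search for shared elements. They run from 250 bases before to 50 bases after the RefSeq start (build GRCm38.p6), 5′ to 3′ in the direction of the gene. Timp3 is on chromosome 10 (chr10:86300162-86300461, plus strand), Timp1 on chromosome X (chrX:20869916-20870215, plus strand) and Adamts9 on chromosome 6 (chr6:92943485-92943784, minus strand). Capitals mark matches, on either strand, to the GC box GGGCGG, which on the other strand reads as its complement in reverse, to the AP-1 variant TGAGTAA that is known from Timp1, and to the E-box CAGCTG.
Timp3: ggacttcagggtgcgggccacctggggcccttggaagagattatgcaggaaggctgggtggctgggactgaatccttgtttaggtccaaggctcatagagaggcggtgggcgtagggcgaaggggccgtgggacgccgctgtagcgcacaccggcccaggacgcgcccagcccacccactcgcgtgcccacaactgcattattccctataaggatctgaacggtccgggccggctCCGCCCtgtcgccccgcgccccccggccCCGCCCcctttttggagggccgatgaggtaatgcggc
Timp1: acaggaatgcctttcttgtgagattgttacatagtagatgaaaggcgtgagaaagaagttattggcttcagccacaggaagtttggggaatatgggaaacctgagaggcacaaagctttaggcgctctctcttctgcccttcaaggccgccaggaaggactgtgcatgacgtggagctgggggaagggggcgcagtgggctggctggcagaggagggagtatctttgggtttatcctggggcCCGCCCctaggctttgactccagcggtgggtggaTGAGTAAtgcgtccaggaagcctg
Adamts9: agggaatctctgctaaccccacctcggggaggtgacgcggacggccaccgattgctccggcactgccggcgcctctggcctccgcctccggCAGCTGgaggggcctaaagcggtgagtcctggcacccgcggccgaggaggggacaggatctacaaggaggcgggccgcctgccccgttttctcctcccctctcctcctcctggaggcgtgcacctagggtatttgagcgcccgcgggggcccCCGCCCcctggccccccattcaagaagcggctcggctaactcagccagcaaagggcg
Timp3 holds 2 GC boxes, Timp1 holds 1 GC box and, 26 bases after the start, the AP-1 variant, and Adamts9 holds 1 GC box and 1 E-box. No match overlaps another. GC boxes stand in 35.7% of 32851 mouse promoters of this length, E-boxes in 16.3% and the AP-1 variant in 2.68%. The AP-1 consensus TGANTCA (7.81% of promoters), the TATA box TATAAA (13.6%) and the paired STAT half-sites TTCNNNGAA (8.30%) are not in these 3 windows. GC content is 67.0% in the Timp3 window, 55.0% in that of Timp1 and 70.0% in that of Adamts9. These are descriptions of letters and not binding sites. Promoters were at hand for 54 of the 85 genes.

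The first comparison asks how the geriatric cells sorted as VCAM1-negative differ from middle-aged YFP+ cells. In VCAM1-negative libraries the inhibitor Timp3 rose, and the gelatinase Mmp2 and the proteoglycan-cutting Adamts9 fell. These were 3 of 36 genes (1 higher and 2 lower), or 8.33%, against 14.4% of all genes tested. The median log2 fold change was -0.16 over the 36 genes and -0.02 over all genes. In the same comparison 7 of 8 muscle fibre markers rose (median log2 3.69) and 3 of 8 stem cell markers fell (median log2 -1.07), and their part in the results was not tested.

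Timp3 measured 267, 449.6 and 381 RPKM in VCAM1-negative libraries, 209 and 460.4 in VCAM1-low, 268, 419 and 306 in VCAM1-high, and 92.3, 144 and 135 in middle-aged libraries. All 8 geriatric libraries lay above all 3 middle-aged ones, and in each gate the number-2 library was the highest. Group means were 366 ± 92.5 RPKM in VCAM1-negative (n = 3), 335 ± 178 in VCAM1-low (n = 2), 331 ± 78.5 in VCAM1-high (n = 3) and 124 ± 27.7 in middle-aged libraries (n = 3). Timp3 was 2.92-fold higher in VCAM1-negative than in middle-aged libraries (log2 1.55 ± 0.32, limma adjusted p = 0.01534). The call was lost without VCAM1-negative replicate 2 (adjusted p = 0.06318) and without middle-aged replicate 1 (adjusted p = 0.05492), and the log2 fold change then stayed at 1.38 and 1.35. It was also lost without the 3 number-3 libraries (1.58, adjusted p = 0.05907). The gene lies within Syn3 on the opposite strand and shares exonic sequence with it in the mouse annotation; Syn3 itself measured at most 0.2215 RPKM.

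Mmp2, a secreted gelatinase that cuts denatured collagen and basement membrane collagen, went the other way. It measured 74.1, 52.4 and 97.3 RPKM in VCAM1-negative libraries, 69.3 and 64.4 in VCAM1-low, 59.9, 65.0 and 137 in VCAM1-high, and 138, 191 and 362 in middle-aged libraries. The geriatric libraries all lay below the middle-aged ones, although VCAM1-high replicate 3 and middle-aged replicate 1 were nearly level. Mmp2 was 2.91-fold lower in VCAM1-negative than in middle-aged libraries (log2 -1.54 ± 0.39, limma adjusted p = 0.02903). The call was lost without VCAM1-negative replicate 1 or 2 or middle-aged replicate 2 or 3 (adjusted p up to 0.1111) and when low genes were kept in (adjusted p = 0.06477). Without middle-aged replicate 3 the log2 fold change was -1.16.

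Mmp2 is a transcript that fibro-adipogenic progenitors also make, and their markers did not move as one. Of the 9 markers Dpt and Col3a1 fell and Dcn rose in VCAM1-negative against middle-aged libraries, and the other 6 did not pass the test. Pdgfra, the receptor that defines these progenitors, was lowest in middle-aged replicates 1 and 2, at 0.113 and 0.136 RPKM, where Mmp2 stood at 138 and 191 RPKM. Markers more abundant than Pdgfra went both ways in those libraries. Dcn and Lum were at their lowest there, with Lum at 4.68 and 4.13 RPKM. Ly6a, at 2.55 and 4.39 RPKM, lay below all VCAM1-negative libraries. Col3a1 and Dpt were high in the same middle-aged libraries. Col3a1 measured 337 and 303 RPKM there, against 6.46 to 32.0 in VCAM1-negative libraries. Dpt measured 142 and 244 RPKM, against 9.76 to 48.1. Middle-aged replicate 3 had the highest marker sum (1549 RPKM) and the highest Mmp2. Dcn, a proteoglycan gene abundant in these progenitors, measured 795, 444 and 704 RPKM in VCAM1-negative libraries, against 24.5, 52.9 and 485 RPKM in middle-aged libraries, and Timp3 in the last of these, at 135 RPKM, lay between the other middle-aged values. The part of such cells in the levels of Mmp2 and Timp3 was not tested.

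Adamts9, which cuts versican and aggrecan, was low in all libraries and lower in the geriatric ones. It measured 0.946, 0.922 and 0.567 RPKM in VCAM1-negative, 0.915 and 0.968 in VCAM1-low, 0.763, 0.812 and 1.12 in VCAM1-high, and 2.49, 3.53 and 2.30 in middle-aged libraries. The 8 geriatric libraries did not overlap the 3 middle-aged ones. The log2 fold change of VCAM1-negative over middle-aged libraries was -1.05 ± 0.19 (limma adjusted p = 0.01005), and with a pseudocount of 0.1 in place of 1 it was -1.66. The call held in 19 of 19 alternatives, including each of the 11 omissions of 1 library. Adamts9 reached 1 RPKM in 4 libraries, the 3 middle-aged ones and VCAM1-high replicate 3. It thus entered the test through the group where it was high, and it is not tested with a mean of 5 RPKM as filter. Exons of Adamts9 overlap annotated genes on the opposite strand (A730049H05Rik and Gm15737), and the sources used here do not give whether counting used the strand.

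**Figure D2:**
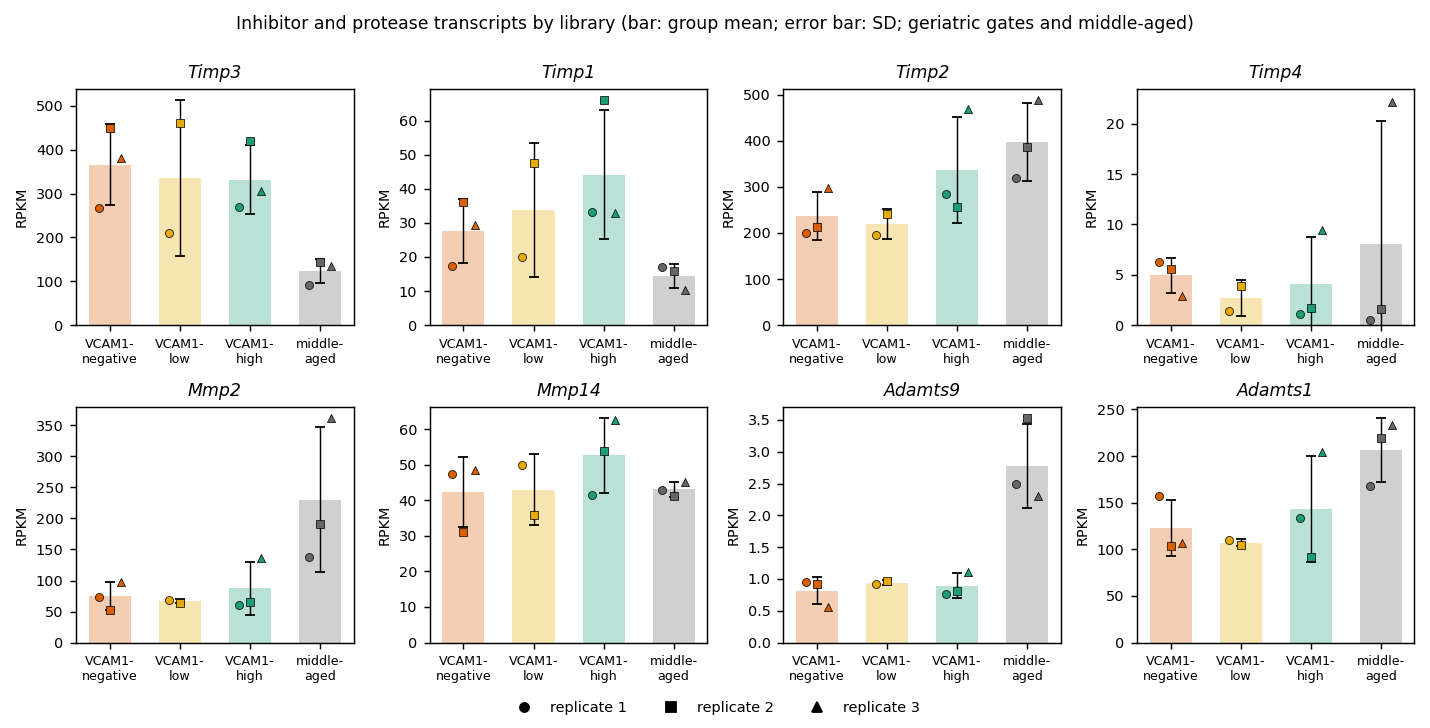
RPKM of the 4 TIMPs, Mmp2, its activator Mmp14, Adamts9 and Adamts1 in every library, with bars at the group mean and error bars of 1 SD (for Timp4, the lower ends that fall below 0 are not drawn). In Timp3 and Timp1 the middle-aged points lie below all geriatric points, in Mmp2 and Adamts9 they lie above, and in Timp4 a single middle-aged point at 22.1 RPKM sets the mean.

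The 3 other inhibitors did not pass in this comparison. Timp1, the secreted inhibitor known to be induced by cytokines and growth factors, measured 17.4, 36.2 and 29.3 RPKM in VCAM1-negative libraries, 19.9 and 47.6 in VCAM1-low, 33.3, 66.0 and 33.0 in VCAM1-high, and 17.0, 15.9 and 10.3 in middle-aged libraries. All geriatric values lay above the middle-aged ones, the nearest being VCAM1-negative replicate 1 and middle-aged replicate 1, and its log2 fold change of VCAM1-negative over middle-aged libraries was 0.86 ± 0.39 (limma adjusted p = 0.1426). Timp2, which both inhibits MMPs and helps Mmp14 to activate Mmp2, measured 200.1, 214 and 297 RPKM in VCAM1-negative, 197 and 242 in VCAM1-low, 284, 257 and 468 in VCAM1-high, and 319.7, 386 and 488 in middle-aged libraries. The VCAM1-negative and VCAM1-low libraries lay below the middle-aged ones while VCAM1-high overlapped them, and the log2 fold change of VCAM1-negative over middle-aged libraries was -0.75 ± 0.26 (limma adjusted p = 0.07565).

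Timp4, the inhibitor known for its restricted expression in heart, muscle and fat, was uneven between libraries. It measured 6.28, 5.58 and 2.93 RPKM in VCAM1-negative, 1.43 and 3.93 in VCAM1-low, 1.05, 1.73 and 9.48 in VCAM1-high, and 0.494, 1.65 and 22.1 in middle-aged libraries. Timp4 lies within Syn2 on the opposite strand and shares exonic sequence with it, and Syn2 measured 0.9065 to 2.60 RPKM, as high as the low Timp4 values. The highest Timp4 value stands in middle-aged replicate 3. That library had the highest sums of endothelial (218 RPKM), fibro-adipogenic progenitor (1549 RPKM) and tendon cell markers (4 genes, 125 RPKM). The part of other cells in Timp4 was not tested. The log2 fold change of VCAM1-negative over middle-aged libraries was 0.35 ± 0.89 (limma adjusted p = 0.8114), and without the number-3 libraries it was 1.80 (adjusted p = 0.0307).

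Set against one another within a library, Timp3 and the gelatinase Mmp2 stood in another order in geriatric than in middle-aged libraries. The ratio of Timp3 to Mmp2 was 3.60, 8.58 and 3.92 in VCAM1-negative libraries, 3.02 and 7.15 in VCAM1-low, 4.48, 6.45 and 2.24 in VCAM1-high, and 0.668, 0.754 and 0.373 in middle-aged libraries. The ratio of Timp3 to Timp2 was 1.33, 2.1 and 1.28 in VCAM1-negative, 1.07 and 1.90 in VCAM1-low, 0.943, 1.63 and 0.654 in VCAM1-high, and 0.289, 0.374 and 0.277 in middle-aged libraries. Timp3 transcripts thus exceeded those of Mmp2 in all 8 geriatric libraries and fell short of them in all 3 middle-aged ones. The other orders did not separate the groups in this way. Timp3 fell short of Timp2 in VCAM1-high replicates 1 and 3 as well as in the middle-aged libraries. Timp2 exceeded Mmp2 in every library, with ratios of 1.35 to 4.75. Timp1 stayed below Mmp2 in every library but VCAM1-high replicate 2, where the ratio was 1.02. These ratios repeat the genes described above and were not tested.

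The remaining proteoglycan-cutting ADAMTS genes gave mixed values in VCAM1-negative against middle-aged libraries. Adamts1 measured 158, 104 and 107 RPKM in VCAM1-negative and 168, 219 and 233 RPKM in middle-aged libraries, which did not overlap (log2 -0.76 ± 0.28, limma adjusted p = 0.0871). Adamts4 averaged 128 ± 18.0 RPKM in VCAM1-negative and 93.7 ± 30.3 RPKM in middle-aged libraries (n = 3 each; log2 0.48 ± 0.25, limma adjusted p = 0.1982), and the libraries overlapped. Adamts8, Adamts20 and Adamts5 had log2 fold changes of -0.60 ± 0.21, -0.79 ± 0.28 and -0.37 ± 0.27, with limma adjusted p of 0.07352, 0.07906 and 0.3436. Their proteoglycan substrate versican (Vcan) stayed at or under 0.7105 RPKM in all libraries, and aggrecan, brevican and neurocan were lower still, so 0 of these 4 substrate genes was tested.

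Adamts14, which trims the amino ends of procollagens, was low and had a large fold change that passed under some settings only. It measured 0.422, 0.223 and 0.210 RPKM in VCAM1-negative and 2.42, 1.33 and 1.14 RPKM in middle-aged libraries, with no overlap (log2 -1.01 ± 0.38, limma adjusted p = 0.09229). It was called with a pseudocount of 0.1 (log2 -2.14, adjusted p = 0.04913), with only the 2 groups fitted (adjusted p = 0.02915), without VCAM1-high replicate 3 (adjusted p = 0.02007) and without the number-3 libraries (log2 -1.10, adjusted p = 0.0424). Mmp3, stromelysin-1, measured 0.463, 3.36 and 5.56 RPKM in VCAM1-negative libraries, against 0, 0 and 1.37 RPKM in middle-aged libraries (log2 1.38 ± 0.72, limma adjusted p = 0.1994). Those libraries overlapped, and VCAM1-high reached 5.33 RPKM in replicate 3 alone.

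**Figure D3:**
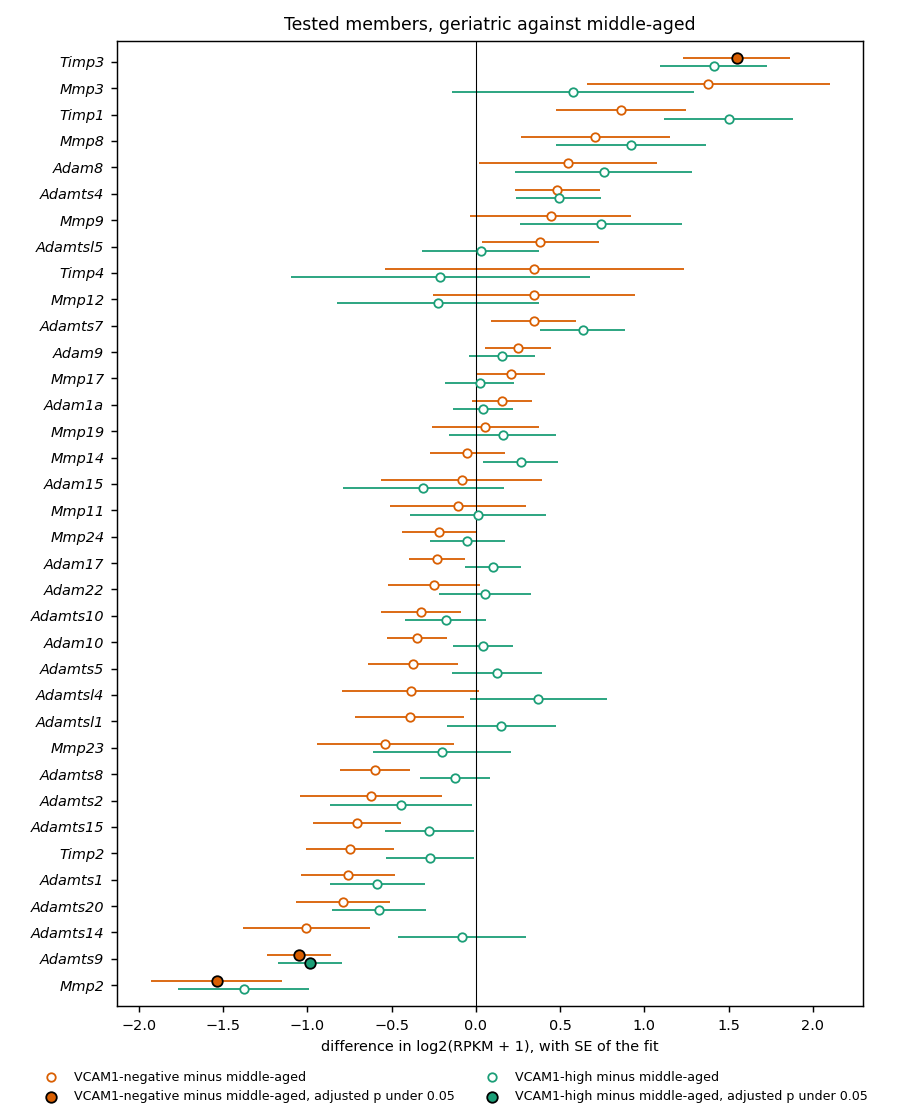
Difference in log2(RPKM + 1) of the 36 tested genes, VCAM1-negative minus middle-aged and VCAM1-high minus middle-aged, with bars of 1 standard error of the fit and filled points where the adjusted p is under 0.05. Timp3 at 1.55, Adamts9 at -1.05 and Mmp2 at -1.54 are filled for VCAM1-negative libraries, and Adamts9 at -0.98 is filled for VCAM1-high libraries. Both comparisons use the same middle-aged libraries.

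The next comparison asks whether geriatric cells sorted as VCAM1-high differ from middle-aged YFP+ cells, and it shares its 3 middle-aged libraries with the one above. Adamts9 fell (log2 -0.98 ± 0.19, limma adjusted p = 0.04912), and it was 1 of 36 genes called, or 2.78%, against 0.605% of all genes tested. That call sat at the threshold: it held in 4 of 19 alternatives, with adjusted p up to 0.2151. The median log2 fold change was 0.03 over the 36 genes and 0.04 over all genes.

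Libraries of the same replicate number deviated together in VCAM1-high and middle-aged samples (correlations of 0.2109, 0.3324 and 0.5544). Between different numbers they were -0.4825 to 0.3314, and VCAM1-high replicate 1 correlated more with middle-aged replicate 2 (0.3314) than with middle-aged replicate 1. Deviations from group means sum to 0 within a group, so different-numbered correlations tend to be negative where same-numbered ones are positive. Each same-numbered pair passed 0.1, so a fit with the number as a block was read beside the unblocked one. Geriatric and middle-aged mice cannot be the same animals, and no label pairs their numbers. The block here thus rests on correlations in these same data, and calls made only under it are provisional. In the blocked fit Timp3 and Timp1 rose and Mmp2 and Adamts9 fell, 4 of 36 genes, or 11.1%, against 6.98% of all genes. Timp3 was 2.66-fold higher in VCAM1-high than in middle-aged libraries (log2 1.41 ± 0.15, blocked adjusted p = 0.002485, against 0.07956 without the block). Timp1 was 2.83-fold higher (log2 1.5 ± 0.27, blocked adjusted p = 0.01831, against 0.1091 without the block). Mmp2 was 2.60-fold lower (log2 -1.38 ± 0.19, blocked adjusted p = 0.009176, against 0.1374 without the block), and Adamts9 had a blocked adjusted p of 0.02056.

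Under the block, the Timp3 call held in 11 of 11 omissions of a library. The Timp1 call held in 8 and was lost without VCAM1-high replicate 1 or 2 or middle-aged replicate 2, with adjusted p up to 0.1266. The Adamts9 call held in 8 as well, with adjusted p up to 0.1426 without the same libraries, and the Mmp2 call held in 9, with adjusted p up to 0.07127 without VCAM1-high replicate 1 or 2. Timp1 lies within Syn1 on the opposite strand, and Syn1 measured at most 0.2711 RPKM.

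In VCAM1-low against middle-aged libraries Adamts9 fell again (log2 -0.95 ± 0.21, limma adjusted p = 0.03885), the 1 gene called of 36, or 2.78%, against 4.11% of all genes. Timp3 had a log2 fold change of 1.35 ± 0.36 (limma adjusted p = 0.05673) and Mmp2 one of -1.65 ± 0.44 (limma adjusted p = 0.05644). With 2 VCAM1-low libraries this comparison is the least precise, and no gene of the 36 was called in 7 of 11 omissions of a library. An F test over the 4 groups called Timp3 (adjusted p = 0.04964) and Adamts9 (adjusted p = 0.03184), 2 of 36 genes, or 5.56%, against 3.32% of all genes.

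Counted without a model, all 8 geriatric libraries lay on one side of the 3 middle-aged libraries in 5 of 36 genes. Timp3, Timp1 and Mmp8 were higher and Mmp2 and Adamts9 were lower, which is 13.9% of the 36 genes, against 14.0% of all genes tested. Mmp8 was tested only through VCAM1-negative replicate 3 and VCAM1-high replicate 3. Adamts9 was tested through the middle-aged libraries, so the filter favoured the separation of both genes. Between VCAM1-negative and middle-aged libraries 14 of 36 genes did not overlap, or 38.9%, against 39.0% of all genes. The share of separated genes was thus near the background in both counts.

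Within the geriatric cells, the comparison of VCAM1-negative with VCAM1-high libraries called 0 of 36 genes, and 0.0% of all genes, by limma without a block. The lowest adjusted p was 0.697 among the 36 genes and 0.05007 among all genes. At an unadjusted p under 0.05 the comparison held 3 of the 36 genes (Adam10, Adamts8 and Adamts14) and 755 genes in all. Timp3, Mmp2 and Adamts9, which set the geriatric libraries apart, had log2 fold changes between the gates of 0.14 ± 0.32, -0.16 ± 0.39 and -0.07 ± 0.19 (limma adjusted p of 0.9483, 0.9493 and 0.9556).

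In VCAM1-low against VCAM1-high and VCAM1-negative against VCAM1-low libraries limma also called 0 of 36 genes and 0.0% of all genes. At an unadjusted p under 0.05 VCAM1-low against VCAM1-high held 2 of the 36 genes and 337 genes in all, and VCAM1-negative against VCAM1-low held 0 of the 36 and 217 in all.

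Same-numbered geriatric libraries also deviated together (correlations of 0.4033 to 0.581 over 7 pairs, and -0.5692 to 0.094 between different numbers). These ranges are not independent, as deviations sum to 0 within a group. With the VCAM1-low pair they are mirror images (0.5692 and -0.5692 with VCAM1-negative replicate 2), and the 7 pairs are not separate observations. With a block for the number over the 8 geriatric libraries, Adamtsl4 fell in VCAM1-negative against VCAM1-high libraries. It was 1 of the 34 genes tested there, or 2.94%, against 4.42% of all genes. Adamtsl4, an ADAMTS-like protein that binds fibrillin microfibrils, measured 9.04, 5.02 and 16.7 RPKM in VCAM1-negative libraries, 12.5 and 7.20 in VCAM1-low, 16.8, 11.6 and 22.1 in VCAM1-high, and 15.8, 15.4 and 7.72 in middle-aged libraries.

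Each VCAM1-negative library of Adamtsl4 was below the VCAM1-high library of its own number, while the groups as a whole overlapped. The log2 fold change was -0.76 ± 0.15 under the block (adjusted p = 0.03732) and -0.76 ± 0.40 without it (adjusted p = 0.8243). With the block fitted over all 11 libraries Adamtsl4 was not called (adjusted p = 0.4004), and that fit called 0 of 36 genes and 0.562% of all genes. The call under the block of the geriatric libraries held in 2 of 8 omissions, those of the number-3 libraries of either gate, and the adjusted p reached 0.1504 in the others. The count of genes called under the block was 0 to 6 over these omissions, with 6 (3 higher and 3 lower) without VCAM1-negative replicate 3 and 6 without VCAM1-high replicate 3. Under the block of the geriatric libraries 8 of 8 muscle fibre markers rose (median log2 4.81) and 4 of 8 stem cell markers fell (median log2 -0.68), and their part in the Adamtsl4 result was not tested.

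The next genes by blocked p all had lower values in VCAM1-negative than in VCAM1-high libraries and did not pass. Timp1 had a log2 fold change of -0.64 ± 0.16 (blocked adjusted p = 0.06818), Timp2 one of -0.47 ± 0.12 (0.07392) and Adamts8 one of -0.48 ± 0.13 (0.07971). All 3 number pairs of each of these genes had the lower value in the VCAM1-negative library, which their choice by blocked p favours. In Timp3 the number pairs did not share a direction, with VCAM1-negative 267 against VCAM1-high 268 RPKM for number 1, 449.6 against 419 for number 2 and 381 against 306 for number 3.

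**Figure D4:**
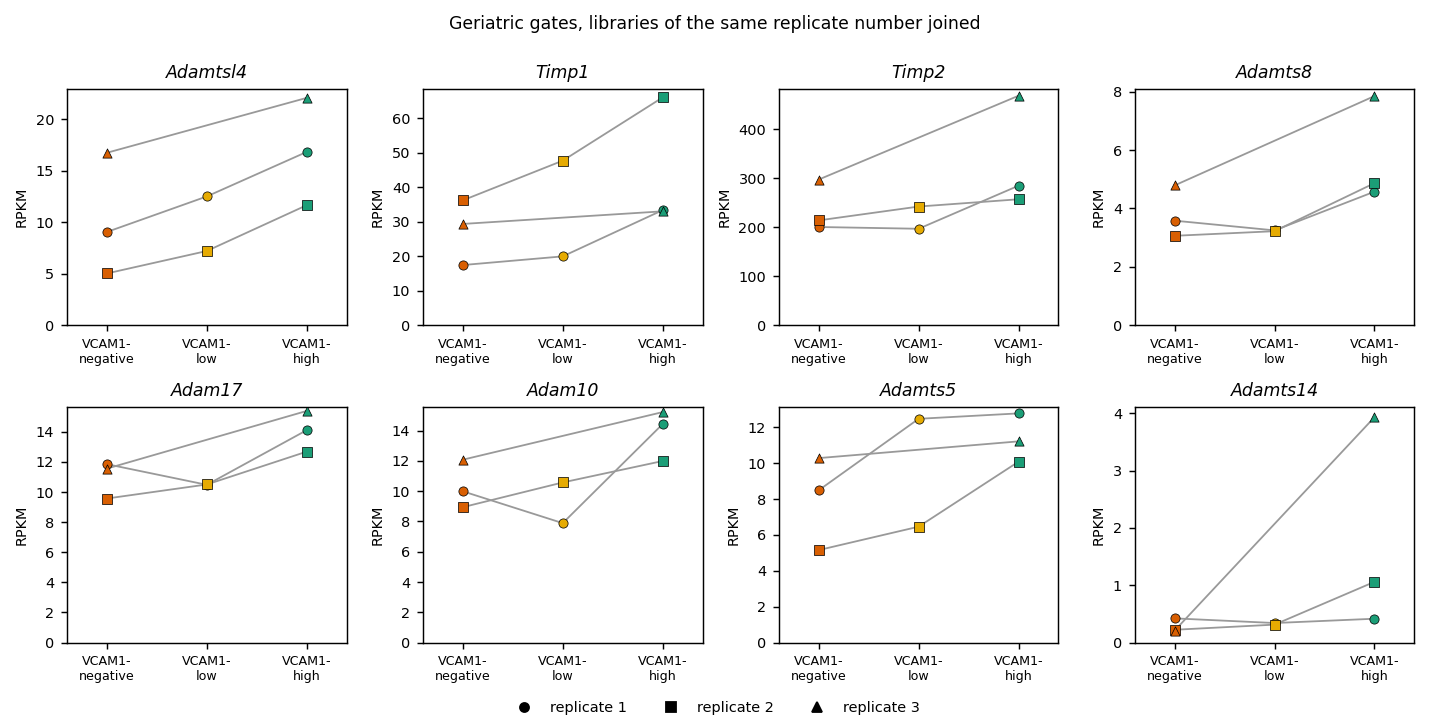
RPKM of 8 genes in the geriatric gates, with libraries of the same replicate number joined by a line. For Adamtsl4, Timp1, Timp2, Adamts8, Adam17, Adam10 and Adamts5 all 3 lines end lower at VCAM1-negative than at VCAM1-high, and for Adamts14 2 lines do while number 1 is level at 0.422 against 0.416 RPKM. How often all 3 lines end lower over the tested family or over all genes was not counted. Under the block of the geriatric libraries 389 of the 500 genes called were lower in VCAM1-negative libraries.

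No ADAM passed in any comparison, with or without the block. Adam17, which releases tumour necrosis factor and ligands of the epidermal growth factor receptor, measured 11.8, 9.57 and 11.6 RPKM in VCAM1-negative libraries, 10.5 and 10.5 in VCAM1-low, 14.1, 12.7 and 15.4 in VCAM1-high, and 15.5, 11.6 and 12.2 in middle-aged libraries. It was the 1 gene of 36 whose VCAM1-negative and VCAM1-high libraries did not overlap, or 2.78%, against 11.4% of all genes. Its log2 fold change between those gates was -0.33 ± 0.17 (limma adjusted p = 0.7894), and its exons overlap those of Iah1 on the opposite strand.

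Adam10, which cuts Notch receptors before they signal, measured 9.99, 8.94 and 12.1 RPKM in VCAM1-negative libraries, 7.89 and 10.6 in VCAM1-low, 14.4, 12.0 and 15.2 in VCAM1-high, and 13.7, 12.2 and 14.2 in middle-aged libraries. VCAM1-negative replicate 3 and VCAM1-high replicate 2 were level, and the log2 fold change between those gates was -0.40 ± 0.18 (limma adjusted p = 0.7557). Adam9, a broad sheddase, averaged 30.4 ± 3.16 RPKM in VCAM1-negative, 28.5 ± 8.07 in VCAM1-low, 28.6 ± 4.81 in VCAM1-high and 25.4 ± 2.09 in middle-aged libraries, and it passed in no comparison. The summed level of the 9 proteolytic ADAMs was 64.8 ± 0.771 RPKM in VCAM1-negative, 58.8 ± 8.0 in VCAM1-low, 71.3 ± 18.2 in VCAM1-high and 67.6 ± 7.62 in middle-aged libraries.

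ADAM10 and ADAM17 are known to shed a set of membrane proteins. Of 18 tested genes for such substrates 4 rose and 2 fell in VCAM1-negative against middle-aged libraries, with a median log2 fold change of -0.02 against -0.02 over all genes, of which 14.4% were called. The interleukin-6 receptor gene Il6ra averaged 5.23 RPKM in VCAM1-negative and 0.516 RPKM in middle-aged libraries (log2 2.02 ± 0.30, limma adjusted p = 0.005357). The fractalkine gene Cx3cl1 averaged 76.3 against 34.3 RPKM in the same groups (log2 1.19 ± 0.24, limma adjusted p = 0.01415), and the growth factor gene Hbegf and the receptor gene Tnfrsf1b rose as well. Vcam1 and the adhesion gene Ncam1 fell, and Vcam1 encodes the protein by which the cells were gated. Il6ra stayed at or under 0.704 RPKM in the middle-aged libraries, so it entered the test only through the geriatric libraries, where it was high. In VCAM1-high against middle-aged libraries Tnfrsf1b rose (log2 1.27 ± 0.23, limma adjusted p = 0.03729) and the other 17 did not pass. With the replicate block Cx3cl1 (log2 1.20 ± 0.22, adjusted p = 0.02092) and Il6ra (log2 1.45 ± 0.23, adjusted p = 0.01352) rose there too, so 3 of 18 genes were called, against 6.98% of all genes.

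Among membrane-type MMPs, Mmp14, which activates the Mmp2 precursor together with Timp2, was the abundant one. It measured 47.5, 31.0 and 48.6 RPKM in VCAM1-negative libraries, 50.02 and 35.9 in VCAM1-low, 41.5, 53.7 and 62.5 in VCAM1-high, and 42.8, 41.1 and 45.3 in middle-aged libraries. The middle-aged values fell inside the geriatric range, and the log2 fold change of VCAM1-negative over middle-aged libraries was -0.05 ± 0.22 (limma adjusted p = 0.896). Mmp2 and its activator thus gave unlike values, 1 called and 1 not, and the difference between them was not tested. The 7 membrane-type MMPs together summed to 45.9 ± 10.4 RPKM in VCAM1-negative, 46.4 ± 10.3 in VCAM1-low, 56.8 ± 11.5 in VCAM1-high and 47.9 ± 4.05 in middle-aged libraries.

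Adamts10, which binds fibrillin, averaged 24.1 ± 5.51 RPKM in VCAM1-negative, 23.8 ± 3.38 in VCAM1-low, 26.7 ± 6.02 in VCAM1-high and 30.5 ± 6.98 in middle-aged libraries. Adamts5, an aggrecan- and versican-cutting enzyme, averaged 7.98 ± 2.60 RPKM in VCAM1-negative, 9.47 ± 4.25 in VCAM1-low, 11.4 ± 1.35 in VCAM1-high and 10.3 ± 1.46 in middle-aged libraries. Neither passed in any comparison. Adamts1 and Adamts5 are neighbours on chromosome 16, and Adamts8 and Adamts15 are neighbours on chromosome 9. Within each pair the levels differed, as Adamts1 averaged 122.7 RPKM in VCAM1-negative libraries where Adamts5 averaged 7.98 RPKM.

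Some genes were high in single libraries, and some but not all of those libraries also stood out by markers of other cells. Mmp8, the collagenase stored in neutrophil granules, was listed at 0 in all 3 middle-aged libraries and measured 0.146, 0.640 and 1.33 RPKM in VCAM1-negative, 0.0567 and 0.592 in the VCAM1-low pair and 0.204, 0.302 and 3.34 in VCAM1-high. Its log2 fold change was 0.92 ± 0.44 in VCAM1-high against middle-aged libraries (limma adjusted p = 0.3619). The neutrophil markers S100a8 and Ly6g were likewise at 0 in all 3 middle-aged libraries, and VCAM1-high replicate 3 had the highest neutrophil sum and the highest Mmp8. Mmp9, a gelatinase of leukocytes, reached 3.77 RPKM in that library and 1.34 RPKM or less in the others.

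Adam8, a sheddase known from leukocytes, measured 6.36 RPKM in VCAM1-high replicate 3, where the macrophage sum was 842 RPKM, and 0.403 to 2.09 RPKM elsewhere. Adam15, an ADAM known from endothelium, measured 24.2 RPKM in middle-aged replicate 3 and 22.2 RPKM in VCAM1-high replicate 3, against 5.48 to 12.3 RPKM in the other libraries. The endothelial sum was 218 RPKM in middle-aged replicate 3 and 78.7 RPKM in VCAM1-high replicate 3. In VCAM1-negative replicate 2 it was 101 RPKM, with Adam15 at 12.0 RPKM. Mmp12, macrophage elastase, measured 6.70 RPKM in VCAM1-low replicate 2, whose macrophage sum was 51.3 RPKM, and at most 2.04 RPKM elsewhere. In VCAM1-high replicate 3, which had the highest macrophage sum, Mmp12 measured 0.791 RPKM. The part of other cell types in these levels was not tested.

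**Figure D5:**
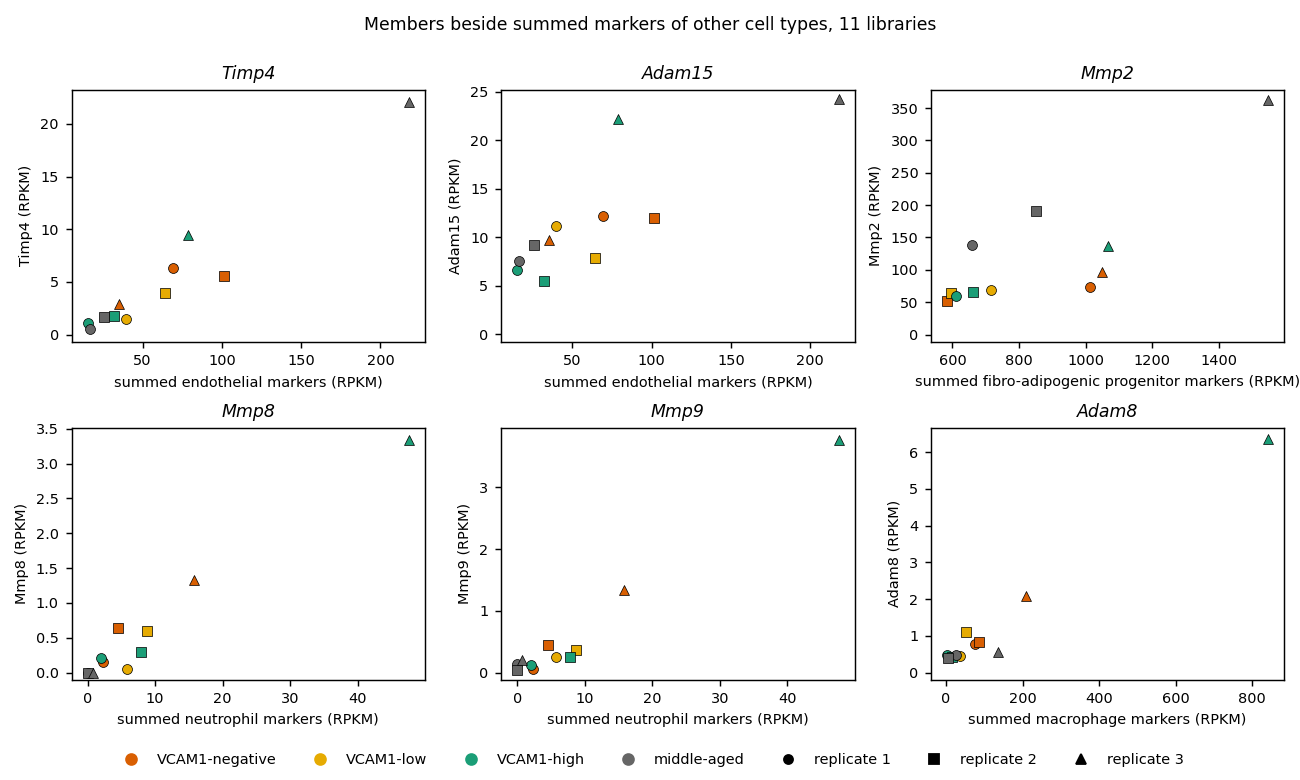
RPKM of 6 genes against the summed RPKM of markers of another cell type, 1 point per library, with colour for the group and shape for the replicate number. Middle-aged replicate 3 stands alone at an endothelial sum of 218 with Timp4 at 22.1, and it also has the highest progenitor sum. VCAM1-high replicate 3 stands alone at a neutrophil sum of 47.6 with Mmp8 at 3.34. Mmp2 in middle-aged replicates 1 and 2 exceeds geriatric libraries with like progenitor sums. Those sums differ in make-up, as Dcn is the largest part in every geriatric library and Col3a1 in middle-aged replicates 1 and 2.

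Of the 10 MMP genes that stand in a row on chromosome 9, Mmp3, Mmp8 and Mmp12 were tested, and the 7 others stayed under 1 RPKM in all libraries. Mmp12 and Mmp1b share exonic sequence on opposite strands, and Mmp1b was listed at 0. The other tested secreted MMPs, Mmp19 and Mmp11, averaged 5.80 and 4.49 RPKM in VCAM1-negative and 5.55 and 4.56 RPKM in middle-aged libraries, and neither passed in any comparison.

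Proteases and inhibitors outside the named families were read from lists of the same pathway. In the plasminogen system Serpine2 and Plgrkt fell in VCAM1-negative against middle-aged libraries. Serpine2, an inhibitor of serine proteases, averaged 69.8 RPKM in VCAM1-negative and 160.4 RPKM in middle-aged libraries (log2 -1.18 ± 0.28, limma adjusted p = 0.0227). The plasminogen receptor gene Plgrkt averaged 13.8 RPKM in VCAM1-negative and 31.5 RPKM in middle-aged libraries (log2 -1.17 ± 0.32, limma adjusted p = 0.03693). Of 15 tested membrane regulators and convertases, Tspan33 rose and Tspan5 and Spock1 fell in the same comparison (median log2 -0.13), 3 genes called against 14.4% of all genes. Tspan5 and Tspan33 encode tetraspanins that escort ADAM10. Spock1 reached 1 RPKM only in the middle-aged libraries and VCAM1-high replicate 3 (1.15 RPKM). It thus entered the test through the group where it was high.

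Of 11 tested tolloids, HtrA proteases and other matrix proteases, Ctsl rose and Htra1 and Bmp1 fell in VCAM1-negative against middle-aged libraries (median log2 -0.32), 3 genes called against 14.4% of all genes. Htra1, a secreted serine protease, averaged 16.1 RPKM in VCAM1-negative, 14.7 in VCAM1-low, 19.2 in VCAM1-high and 73.9 in middle-aged libraries. It fell in all 3 gates against middle-aged libraries, with log2 fold changes of -2.11 ± 0.34 in VCAM1-negative (limma adjusted p = 0.007729), -2.25 ± 0.38 in VCAM1-low (0.01839) and -1.94 ± 0.34 in VCAM1-high (0.03677). Bmp1, the procollagen C-proteinase, averaged 16.2 RPKM in VCAM1-negative and 44.0 RPKM in middle-aged libraries (log2 -1.40 ± 0.33, limma adjusted p = 0.02294). Cathepsin L (Ctsl), a lysosomal protease, averaged 445 RPKM in VCAM1-negative and 204 RPKM in middle-aged libraries (log2 1.08 ± 0.32, limma adjusted p = 0.04668). In VCAM1-high against middle-aged libraries Htra1 was the 1 gene of this list called without the replicate block, and with it Ctsl also rose (log2 0.95 ± 0.20, adjusted p = 0.03096) and Bmp1 (log2 -1.05 ± 0.25, adjusted p = 0.04315) and Pcolce2 (log2 -1.46 ± 0.31, adjusted p = 0.03116) fell, against 6.98% of all genes called.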

How the data were processed

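RPKM values of 20640 genes in 11 libraries were deposited by the authors (column names match the sample descriptions). Per the labels' protocols, libraries came from TRI Reagent RNA and a low-input SMART-Seq kit and were read as paired ends. Tools in the submitters' processing notes are STAR 2.7.5b, cutadapt 3.1, SAMtools 0.1.19 and Bowtie2 2.1.0, with build GRCm39; the sources used here do not give the counting tool, strand setting or gene lengths. RPKM fixes each library's total, so a change in a few abundant genes shifts all others.

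The 11568 genes with 1 RPKM or above in 2 or more libraries entered limma 3.58.1 (R 4.3.3) as log2(RPKM + 1), with 4 group means over all 11 libraries, a variance trend and Benjamini-Hochberg adjustment over all genes. The procedure was first tested on simulated data. Alternatives were the pseudocount, the filter, scaling, the variance trend, the 2 groups alone, a replicate block and leaving out each library.

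The labels do not say that replicate numbers pair samples, and geriatric and middle-aged mice cannot be the same animals. Deviations from group means of same-numbered libraries correlated at 0.4033 to 0.581 between geriatric gates and at 0.2109 to 0.5544 between VCAM1-high and middle-aged libraries, so the block is read there; those of VCAM1-negative with middle-aged libraries (-0.0246 to 0.0808) did not pass 0.1.

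Depth was estimated from the steps of low RPKM values: 63.3% to 71.9% of them were whole reads to a tolerance of 0.1 (20% would be by chance), at lengths from another annotation. Promoters are from RefSeq (GRCm38.p6) and gene overlaps from GENCODE M21. The genes, lists and tests were chosen with earlier results of these data known. The 22 genes named with values are the 4 TIMPs, genes with a group mean of 10 RPKM or more, genes called in any fit and the 5 largest fold changes of each main comparison; others were named after their values were seen. Some results are not reported here.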

Additional observations from a re-analysis of the deposited data

How the results depend on the processing

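The numbers of genes called moved with the processing more than the fold changes did. For VCAM1-high against middle-aged libraries the count of 1 became 0 with a pseudocount of 0.1, with no filter, with a mean of 5 RPKM as filter (where Adamts9 is not tested), with an equal RPKM sum, with median ratio scaling and with only the 2 groups fitted; it was 4 with the replicate block and 0 to 2 when 1 library was left out. For VCAM1-negative against middle-aged libraries the count of 3 was 1 to 8 when 1 library was left out, with 1 without VCAM1-negative replicate 2 and 8 without VCAM1-high replicate 3. For VCAM1-low against middle-aged libraries the count of 1 was 0 with no filter, 2 with a mean of 5 RPKM, 2 with only the 2 groups, 2 without the number-3 libraries and 0 to 4 when 1 library was left out. For the F test the count of 2 was 0 with no filter, 1 with a mean of 5 RPKM, 1 with median ratio scaling, 1 without the variance trend, 1 without the number-3 libraries and 0 to 3 when 1 library was left out. The cause of these moves was not tested, apart from the genes a filter takes out. Leaving out the number-3 libraries, and leaving libraries out under the block, were chosen after seeing the data.

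With the replicate block over the 8 geriatric libraries the count was 1 for VCAM1-negative against VCAM1-high libraries (0 to 6 when 1 library was left out), and with the block over all 11 libraries it was 0 there and 4 for VCAM1-high against middle-aged libraries (1 to 5). Between the geriatric gates neither block changed another call. VCAM1-negative and VCAM1-low share only numbers with middle-aged libraries (correlations of at most 0.1475), and there the block gave 8 genes (31.6% of all genes called) and 5 genes (15.8%), and 5 in the F test (17.5%). Over all genes the block of 8 libraries gave 500 calls and that of 11 libraries 65, against 0 without a block, for VCAM1-negative against VCAM1-high. The block of 11 libraries gave 807 against 70 for VCAM1-high against middle-aged, 3656 against 1671 for VCAM1-negative against middle-aged and 1827 against 475 for VCAM1-low against middle-aged libraries.

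No fold change of a named gene reversed in a call under any alternative run: 1272 values kept their side of the threshold, 23 lost a call and 19 gained one. Scaling moved the median log2 fold change of all genes past 0.1 in 1 case, VCAM1-low against VCAM1-high with an equal RPKM sum (-0.11). Groups of 2 or 3 libraries limit all tests, and genes under 1 RPKM rest on few reads.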
